A study of Mus musculus with 6 samples.

Results

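The 8 transcription regulators described here mark cortical neuronal layers or the identity of the cortex as a region, and were measured in sorted astrocytes. They are Rorb, Cux1, Cux2, Fezf2, Tle4, Tbr1, Lhx2 and Emx2. The members were the 8 of 43383 rows of the expression table whose gene symbol equals one of these names, and each name had 1 row. The cells came from somatosensory cortex of Aldh1l1-eGFP mice, males aged 4 weeks, in which regulatory DNA of the astrocyte gene Aldh1l1 drives green fluorescent protein. All 6 libraries share this transgene, and the labels name no other allele and no treatment. Upper-layer astrocytes (ULAs) were GFP-positive cells sorted from layers II to IV and deep-layer astrocytes (DLAs) were GFP-positive cells sorted from layers V and VI, with 3 libraries of each from 3 brains. Layer I, the meninges and the corpus callosum had been cut away, as had tissue at the border of layers IV and V, so a ULA library mixes cells of several layers and a DLA library likewise. The border between ULAs and DLAs is therefore a cut made under the microscope, and the gate takes any GFP-positive cell.

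In the developing and adult cortex, excitatory neurons of each layer are specified by transcription factors that often repress the programme of another layer. Rorb, Cux1 and Cux2 are textbook markers of upper-layer neurons, whereas Fezf2, Tle4 and Tbr1 mark deep-layer neurons that project below the cortex or to the thalamus. Lhx2 and Emx2 act earlier, in the dorsal progenitors that give rise to both neurons and astrocytes, where they establish cortex as a region and pattern it into areas. Astrocytes of the cortex descend from the same dorsal progenitors, and several of these factors have known roles in glia or progenitors as well as in neurons.

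A set of 4 sequences is shown first because 36-base single-end reads cannot be assigned to either gene where a pair of family members is identical over 36 bases or more. Tle4 and Tle1, which are both co-repressors of the Groucho family, share a run of 68 coding bases, and 33 read positions lie wholly inside it. Cux1 and Cux2, both cut-type homeodomain proteins, share at most 23 coding bases in a row, which is shorter than a read. The coordinates are of GRCm38, all 4 stretches lie within coding exons on the minus strand, and the capitals mark the bases shared by the pair, with 15 bases of the same exon on either side.
Tle4, chr19:14454790-14454887: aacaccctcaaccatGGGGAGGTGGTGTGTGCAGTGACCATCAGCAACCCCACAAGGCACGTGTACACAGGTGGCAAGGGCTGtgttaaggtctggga
Tle1, chr4:72126237-72126334: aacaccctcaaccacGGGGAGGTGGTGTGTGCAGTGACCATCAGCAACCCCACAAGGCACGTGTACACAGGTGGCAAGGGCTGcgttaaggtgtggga
Cux1, chr5:136312806-136312858: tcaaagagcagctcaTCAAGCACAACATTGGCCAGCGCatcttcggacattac
Cux2, chr5:121873820-121873872: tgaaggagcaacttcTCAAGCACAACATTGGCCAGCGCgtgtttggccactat

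Across the GENCODE transcripts of the 8 members, 63 of 4510 read positions of Tle4 (1.4%) were also present in Tle1, and no other gene held any. Cux1 shared 360 of 12827 positions (2.81%) with the overlapping antisense RNA Gm16599, and Emx2 shared 229 of 2881 (7.95%) with its antisense RNA Emx2os. Rorb shared 0.81% of its positions with short repeats in other genes, and Cux2 shared 1 position. Lhx2, Fezf2 and Tbr1 shared none. The library kit does not mark strand, so reads from the overlaps of Cux1 and Emx2 with their antisense partners cannot be told apart, and the values of these 2 genes carry that uncertainty. Whether reads that fit more than 1 place were kept is not given in the sources used here, so what the shared positions add to or take from each RPKM is unknown.

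The libraries held 24.4 M to 26.7 M reads in ULAs and 19.7 M to 29.6 M in DLAs, as recovered from the steps in which the deposited values rise. Astrocyte markers summed to 13774 to 14837 RPKM in ULAs and 13205 to 14250 RPKM in DLAs, where RPKM is the read count divided by transcript length in kilobases and by library depth in M reads. Aldh1l1 itself stood at 203.27 to 271.06 RPKM. Summed markers of neurons stood at 12.7 to 15.4 RPKM in ULAs and 12.1 to 14.9 RPKM in DLAs, and Rbfox3, which encodes the neuronal nuclear protein NeuN, did not exceed 0.4 RPKM. Summed oligodendrocyte markers were higher in the DLA library of each brain, at 89.3 to 187.5 RPKM in ULAs and 183.2 to 295.7 RPKM in DLAs. Nothing in the labels marks the 6 libraries as belonging to different batches.

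The 8 factors spanned a wide range of levels in astrocytes. In order of mean RPKM over the 6 libraries they ran Rorb (104.5), Lhx2 (35.4), Tle4 (18.4), Emx2 (10.3), Cux1 (10.2), Fezf2 (5.59), Cux2 (0.425) and Tbr1 (0.0483). Rorb exceeded Lhx2 in all 6 libraries with no overlap of their ranges, Tle4 likewise exceeded Emx2, and Fezf2 exceeded Cux2 by 13.1-fold in mean level. The neighbours Lhx2 and Tle4, Emx2 and Cux1, and Cux1 and Fezf2 had overlapping ranges. A mean of 1 RPKM was reached by 6 members, which were tested, but not by Cux2 or Tbr1. Neither the upper-layer nor the deep-layer markers held a single band of levels, since Rorb and Cux2 stood at the upper and lower parts of the order and so did Tle4 and Tbr1.

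**Figure D1:**
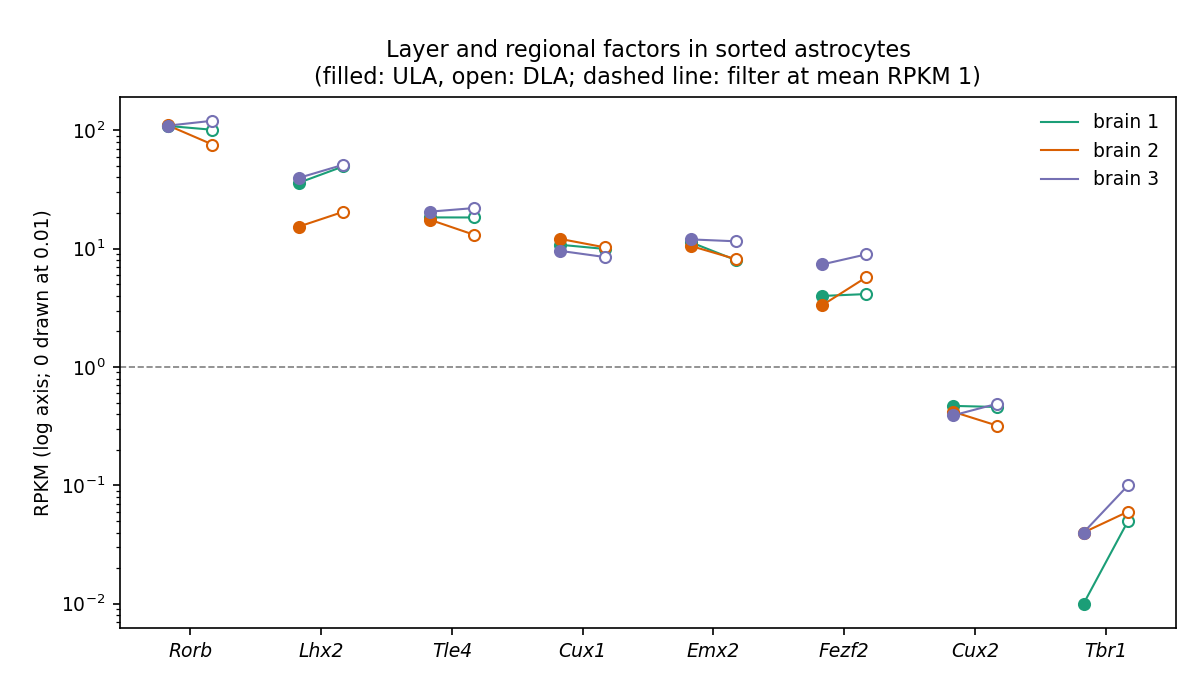
Levels of the 8 factors in RPKM (log axis) in each library, with ULAs as filled and DLAs as open points and a line joining the 2 libraries of each brain. Rorb lies between 75.98 and 120.66 RPKM in the 6 libraries, Cux2 at or below 0.49 RPKM and Tbr1 at or below 0.1 RPKM (the 0 of ULA brain 1 is drawn at 0.01).

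No member passed the test between ULAs and DLAs (0 of 6 tested, limma with brain as a block, adjusted p under 0.05), and 1.63% of all 13999 rows tested did. At an unadjusted p under 0.05 the same test held 1 of the 6 members and 2295 of all rows. Of all rows, 0.714% were called higher in ULAs and 0.914% higher in DLAs. The fitted differences of the 6 members, ULA minus DLA on the log2(RPKM + 1) scale, ran from -0.40 for Lhx2 to 0.28 for Emx2, with a median of 0.13 beside -0.03 over all rows tested. All 6 lay within 0.5 of zero, as did 95.9% of all rows. The ULA and DLA values overlapped in each of the 6, and 15.9% of all rows tested had groups that did not overlap.

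Among the upper-layer markers, Rorb (chr19:19005099-19185686 of mm9, minus strand, 11 exons) encodes the nuclear receptor RORβ, which in neurons is characteristic of layer IV. Its values were 109.07, 110.3 and 109.69 RPKM in ULAs of brains 1 to 3 and 101.22, 75.98 and 120.66 RPKM in DLAs. The ULA libraries lay close together, and the DLA libraries lay on either side of them, with brain 2 lowest and brain 3 above every ULA library. The fitted difference was 0.17 ± 0.13 (SE, n = 3 brains), a fold of 1.12 with a 95% interval of 0.923 to 1.37 (adjusted p = 0.547, limma). Rorb was higher in ULAs in 2 of 3 brains. The difference rested on brain 2, and without that brain it was -0.01 (adjusted p = 0.97, limma, beside 0.109 to 0.97 over the 13 alternative fits). The libraries held 14039 to 33525 Rorb reads each, and only 4.87% of the rows tested stood at or above its mean level.

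Cux1 (chr5:136724005-137043301, minus strand, 33 exons), a homeodomain factor of layers II to IV in neurons, was measured at 10.8, 12.1 and 9.59 RPKM in ULAs and at 9.96, 10.27 and 8.51 RPKM in DLAs. Each brain had the higher value in its ULA library, although the groups overlapped. The fitted difference was 0.16 ± 0.12 (SE, n = 3 brains), a fold of 1.12 with a 95% interval of 0.933 to 1.34 (adjusted p = 0.53, limma). A correction for transcript length lowered it to 0.07, and likewise lowered Rorb to 0.05 and Tle4, a deep-layer marker described below, to 0.04. The row joins 2 RefSeq transcripts of different length and does not separate them. The antisense RNA that overlaps 5.99% of the row was itself measured at 20.97 to 30.43 RPKM, a level above that of Cux1. Its part in the Cux1 values was not tested.

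Cux2 (chr5:122310225-122497834, minus strand, 23 exons), the relative of Cux1 that in neurons is more tightly limited to upper layers, was far lower. Its values were 0.47, 0.42 and 0.39 RPKM in ULAs and 0.46, 0.32 and 0.49 RPKM in DLAs, which correspond to 32 to 74 reads per library. The DLA range enclosed the ULA range. Mean levels were 0.427 ± 0.0404 RPKM in ULAs and 0.423 ± 0.0907 RPKM in DLAs (SD, n = 3 each). It did not pass the filter. When every row above 0 was kept, its difference was 0.00 on the log2(RPKM + 1) scale, where such low values are compressed (adjusted p = 0.988, limma).

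Among the deep-layer markers, Tle4 (chr19:14522562-14672473, minus strand, 20 exons), a Groucho co-repressor that marks layer VI neurons, was measured at 18.4, 17.63 and 20.57 RPKM in ULAs and at 18.37, 13.12 and 22.06 RPKM in DLAs. The pair of libraries from brain 1 had nearly equal values, brain 2 was higher in ULAs and brain 3 was higher in DLAs. The fitted difference was 0.10 ± 0.13 (SE, n = 3 brains), a fold of 1.07 with a 95% interval of 0.882 to 1.31 (adjusted p = 0.735, limma). Without brain 2 the difference was -0.05 (adjusted p = 0.905, limma, beside 0.442 to 0.972 over the 13 alternative fits). Rorb and Tle4 are thus marks of different neuronal layers whose values in astrocytes followed the same order of brains in DLAs, with brain 2 lowest and brain 3 highest.

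Fezf2 (chr14:13174406-13178379, minus strand, 5 exons), a zinc-finger repressor that specifies layer V neurons projecting below the cortex, was measured at 3.99, 3.32 and 7.36 RPKM in ULAs and at 4.14, 5.75 and 8.97 RPKM in DLAs. Each brain had the higher value in its DLA library, by very little in brain 1, and brain 3 was the highest in both layers. The difference between brains exceeded that between layers. The fitted difference was -0.31 ± 0.15 (SE, n = 3 brains), a fold of 1.24 in DLAs over ULAs with a 95% interval of 0.986 to 1.57 (adjusted p = 0.333, limma). It was -0.15 without brain 2 and -0.45 without brain 1. The libraries held 196 to 611 Fezf2 reads each.

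Tbr1 (chr2:61642510-61652170, plus strand, 6 exons), a T-box factor of layer VI neurons, was at the edge of detection. Its values were 0, 0.04 and 0.04 RPKM in ULAs and 0.05, 0.06 and 0.1 RPKM in DLAs, or about 8 reads in all ULA libraries and about 22 in all DLA libraries. Each brain had the higher value in DLAs and the groups did not overlap, as was also true of 6.55% of the rows that were above 0 and under the filter. A count of 0 allows up to 3 reads, which is 0.0309 RPKM in ULA brain 1. With every row above 0 kept, the difference was -0.06 on the log2(RPKM + 1) scale (adjusted p = 0.565, limma), but the pseudocount flattens values this low and that fit called no row of the table, so it does not decide whether Tbr1 differed.

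Summed markers of deep-layer neurons that are not members stood at 3.36 to 3.85 RPKM in ULAs and 5.06 to 8.65 RPKM in DLAs. Pcp4 had the largest part in that difference. Without Pcp4 the other 10 genes summed to 3.24, 3.38 and 3.11 RPKM in ULAs and 2.37, 3.18 and 2.53 RPKM in DLAs. That sum was lower in DLAs in each brain, but most of it came from Fam84b. Fam84b stood at 2.59, 2.85 and 2.04 RPKM in ULAs and 1.48, 2.06 and 1.32 RPKM in DLAs. The sign of the 10-gene sum rested on Fam84b, and most of the remaining genes leaned to DLAs, as given below. Of the 11 genes of that list 2 were tested, and Pcp4, a calmodulin-binding peptide of layer V and VI neurons, was called higher in DLAs (0.12, 0.1 and 0.74 RPKM in ULAs and 2.69, 5.47 and 4.32 RPKM in DLAs). The other one tested, Fam84b, had the opposite sign (0.42 ± 0.15 on the log2 scale, SE) and was not called. Of the 9 genes under the filter, 7 had the higher mean in DLAs, 1 in ULAs and 1 had equal means. They ranged from Syt6, at 0 to 0.02 RPKM, to Parm1, at 0.2 to 0.61 RPKM, and Hs3st4 was higher in DLAs in 3 of 3 brains (0.03 to 0.11 RPKM in ULAs and 0.15 to 0.21 RPKM in DLAs). The part of neuronal RNA in the values of Fezf2 and Tbr1 was not tested, and in sorted bulk samples fewer cells of a type and less RNA per cell cannot be told apart. On the upper-layer side, 3 of the 9 genes in the table were tested, none was called (limma; 1 at an unadjusted p under 0.05), and their list summed to 35.4 to 38.2 RPKM in ULAs and 35 to 40 RPKM in DLAs. Wfs1 alone gave 24.21 to 32.95 RPKM of that sum. Of the 6 genes under the filter, 4 had the higher mean in ULAs and 2 in DLAs, and the calcium-binding protein gene Calb1 stood at 0.46, 0.28 and 0.54 RPKM in ULAs and 0.07, 0 and 0 RPKM in DLAs. Single genes of these marker lists were named after their values were seen.

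Of the 2 factors of regional identity, Lhx2 (chr2:38206828-38225248, plus strand, 5 exons), a LIM-homeodomain selector of the cortex, had the largest fitted difference of the 6 members tested. Its values were 36.08, 15.38 and 39.68 RPKM in ULAs and 49.64, 20.51 and 51.26 RPKM in DLAs. Every brain was higher in DLAs, with ULA over DLA ratios of 0.727, 0.75 and 0.774, whereas brain 2 was far below the other brains in both layers. The groups therefore overlapped although the ratio within brains hardly varied. The fitted difference was -0.40 ± 0.10 (SE, n = 3 brains), a fold of 1.32 in DLAs over ULAs with a 95% interval of 1.13 to 1.54. The unadjusted p was 0.00268 and the adjusted p was 0.0932 (limma), which misses 0.05 and passes 0.1, a threshold at which 1.82% of all rows tested were called higher in DLAs. Without the brain block the adjusted p was 0.76 (limma), and without brain 3 it was 0.0444 (limma); these were the highest and the lowest of 13 alternative fits.

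The low level of Lhx2 in brain 2 was the same in both layers, at 0.406 of the mean of the other brains in ULAs and 0.407 in DLAs. The median over all rows tested was 0.976 in ULAs and 0.979 in DLAs, and 178 rows (1.27%) lay under 0.5 in both layers. Ldb1, the partner through which LIM-homeodomain factors assemble complexes, was also low in brain 2, at 0.354 of the other brains in ULAs and 0.38 in DLAs. The transcripts of both genes were rich in G and C, at 58.5% for Lhx2 and 57.9% for Ldb1 beside a median of 49.8%, and the part of base composition in this pattern was not tested. An antisense RNA that overlaps the Lhx2 gene but shares no exonic base with it stood at 16.81, 5.42 and 17.62 RPKM in ULAs and 24.82, 11.12 and 21.59 RPKM in DLAs, likewise lowest in brain 2 and higher in DLAs in each brain.

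The rows whose pattern over the 6 libraries lay nearest to that of Lhx2, by the root mean square difference of log2(RPKM + 1) profiles after each was centred on its own mean, were Mrs2 (0.051), Fam69c (0.056) and Pla2g12a (0.093), out of 11474 RefSeq rows compared. Mrs2, which encodes a mitochondrial magnesium transporter, stood at 11.75, 4.61 and 13.14 RPKM in ULAs and at 15.91, 7.04 and 16.9 RPKM in DLAs. Fam69c ran from 20.71 to 60.97 RPKM and Pla2g12a, a secreted phospholipase A2, from 4.48 to 16.8 RPKM, both lowest in ULAs of brain 2.

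Emx2 (chr19:59533180-59539847, plus strand, 3 exons), a homeodomain factor of caudal and medial cortical identity, was measured at 11.31, 10.54 and 11.99 RPKM in ULAs and at 8.03, 8.18 and 11.56 RPKM in DLAs. Each brain had the higher value in ULAs, with ULA over DLA ratios of 1.41, 1.29 and 1.04, and the DLA library of brain 3 lay inside the ULA range. The fitted difference was 0.28 ± 0.13 (SE, n = 3 brains), a fold of 1.21 with a 95% interval of 0.994 to 1.47 (adjusted p = 0.318, limma). Lhx2 and Emx2 thus had fitted differences of opposite sign, and neither passed the threshold.

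**Figure D2:**
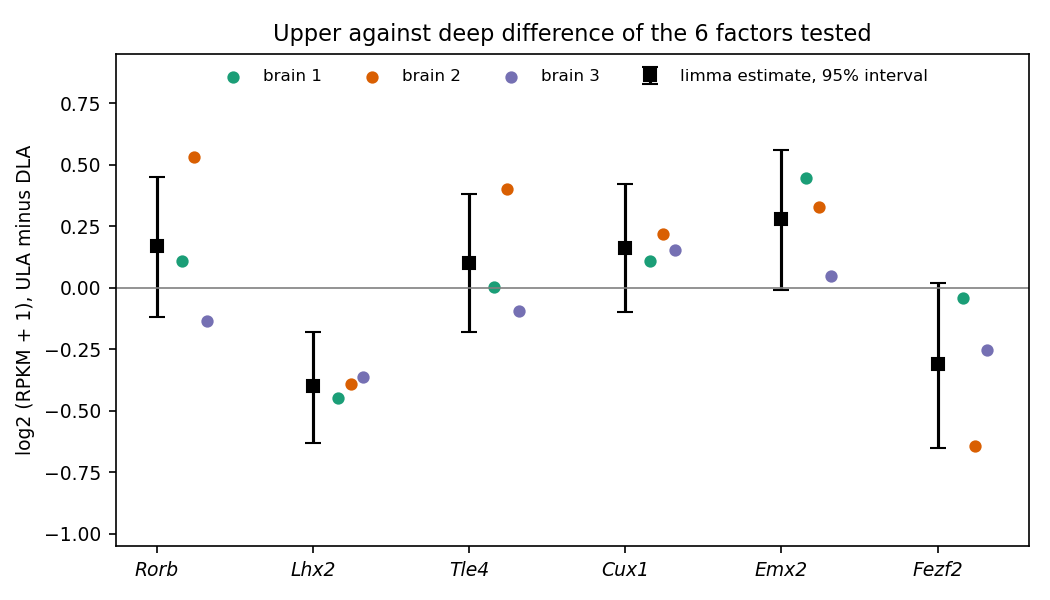
Difference between ULAs and DLAs on the log2(RPKM + 1) scale for the 6 factors tested, with coloured points for the 3 brains and black squares with bars for the limma estimate and its 95% interval. The 3 brains lie close together below 0 for Lhx2, and on both sides of 0 for Rorb and Tle4.

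Factors related to the members were examined in 5 gene lists. Of 7 other upper-layer neuron factors 4 were tested and none was called (limma; 0 at an unadjusted p under 0.05), with a median difference of 0.06 on the log2 scale. The 4 were Lmo4, a LIM-only adaptor (44.1 RPKM on average), the POU factors Pou3f3 (8.02 RPKM) and Pou3f2 (7.6 RPKM), and Mef2c (4.81 RPKM), a MADS-box factor of neuronal and microglial programmes. Mef2c was higher in ULAs in 3 of 3 brains (0.28 ± 0.14, SE, adjusted p = 0.346, limma).

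Of 12 other deep-layer neuron factors 6 were tested and none was called (limma; 0 at an unadjusted p under 0.05), with a median difference of 0.15. The highest were Sox5 (22.7 RPKM on average), Zfpm2, also called FOG2 (21.2 RPKM), Otx1 (19.1 RPKM) and Bcl6 (15.6 RPKM). Sox5, an SRY-box factor that controls the timing of deep-layer neuron production, differed by 0.01 ± 0.14 (SE) between layers, with a 95% interval of -0.29 to 0.32. Bcl11b, also called CTIP2, which acts downstream of Fezf2 in layer V neurons, was listed at 0 in all 6 libraries and was named after its values were seen. Single reads of a row this long are cut to 0 in the table, and 3 reads would be at most 0.0193 RPKM of Bcl11b in any library.

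Of 15 dorsal telencephalic patterning factors, 6 were tested and none was called (limma; 0 at an unadjusted p under 0.05), with a median difference of 0.15. The highest were Nr2e1, also called TLX, an orphan receptor of neural stem cells (35.6 RPKM on average), Meis2 (33.7 RPKM), Gli3, an effector of Hedgehog signalling (25.4 RPKM), and Pax6 (16.4 RPKM). Pax6, a progenitor factor that opposes Emx2 in the patterning of cortical areas, differed by 0.02 ± 0.11 (SE, 95% interval -0.23 to 0.27). Emx1, the closest relative of Emx2, was at 0.23 to 0.56 RPKM, whereas Eomes and Neurog2, both factors of neuronal precursors, were listed at 0 in all 6 libraries; these 3 were named after their values were seen.

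Of 30 factors that mark other brain regions, 17 were listed at 0 in all 6 libraries and 28 had a mean under 0.1 RPKM. The 2 tested were Nkx2-2 and Zic2. Nkx2-2, a homeodomain factor of the ventral neural tube and of the oligodendrocyte lineage, was measured at 2.4, 2.19 and 2.4 RPKM in ULAs and at 4.85, 6.04 and 4.7 RPKM in DLAs. It was higher in DLAs in 3 of 3 brains by 1.85-fold on the log2(RPKM + 1) scale (95% interval 1.48 to 2.32, adjusted p = 0.0153, limma). Of the 12 alternative fits that held Nkx2-2, the call was lost only when no row was filtered (adjusted p = 0.339, limma). With a mean of 3.76 RPKM, Nkx2-2 was not tested in the fit that required at least 5 RPKM. Oligodendrocyte markers moved with it: 7 of the 9 tested were called higher in DLAs, among them the myelin genes Mbp and Mog, and none was called higher in ULAs. The 6 precursor markers summed to 89.2, 85.4 and 96.8 RPKM in ULAs and 133.9, 131.9 and 97.1 RPKM in DLAs, nearly all of it from Olig1 at 79.96 to 125.49 RPKM. Of the 2 precursor markers tested neither was called, Olig1 at -0.35 ± 0.13 and Olig2 at -0.86 ± 0.23 on the log2 scale (SE), and Pdgfra did not exceed 0.07 RPKM. The part of oligodendrocyte RNA in the Nkx2-2 difference was not tested. Zic2 ran from 0.98 to 3.16 RPKM in ULAs and from 1.36 to 3.01 RPKM in DLAs.

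**Figure D3:**
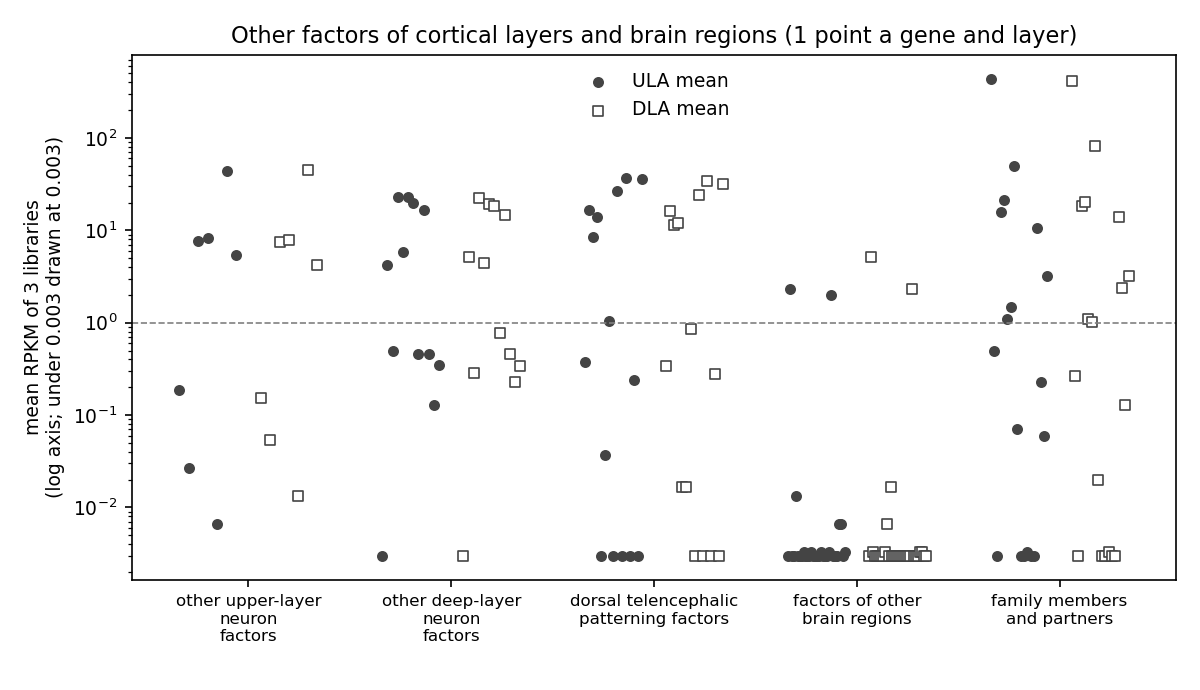
Mean RPKM (log axis) of each gene of the 5 lists of related factors, with ULAs as filled circles and DLAs as open squares. In the list of factors of other brain regions, 28 of 30 genes lie under 0.1 RPKM, and in the other lists both layers cover a like range.

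Among family members and partners of the 8 factors, 9 of 18 were tested, with a median difference of -0.01. The test held 3 of the 9 at an unadjusted p under 0.05 (limma). It called 2, both higher in DLAs, beside 0.914% of all rows tested called higher in DLAs. Both calls were lost without the brain block and when no row was filtered. Aes, a short Groucho protein that lacks the domain with which Tle4 binds many of its partners, was measured at 54.98, 36.65 and 56.71 RPKM in ULAs and at 96.31, 60.23 and 88.03 RPKM in DLAs. It was 1.63-fold higher in DLAs (95% interval 1.4 to 1.9, adjusted p = 0.00736, limma), in 3 of 3 brains and with no overlap of the groups. None of the other Groucho genes tested was called. Tle1, at 9.4 to 23.27 RPKM, had a difference of -0.23 ± 0.11 (SE, adjusted p = 0.359, limma), Tle2, at 17.66 to 25.73 RPKM, of 0.04 ± 0.15 (SE), Tle3, at a mean of 1.1 RPKM, of -0.01 ± 0.16 (SE), and Tle6, at a mean of 1.25 RPKM, of 0.31 ± 0.17 (SE). Among the Groucho genes, Tle4, Tle1 and Tle2 were thus of like abundance in astrocytes, with Aes above and Tle3 and Tle6 far below.

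Lmo1, a LIM-only protein that competes with LIM-homeodomain factors such as Lhx2 for Ldb1, was measured at 0.03, 0.21 and 0.44 RPKM in ULAs and at 1.68, 1.55 and 3.84 RPKM in DLAs. It was higher in DLAs in 3 of 3 brains and by -1.40 ± 0.18 (SE, ULA minus DLA) on the log2(RPKM + 1) scale, which understates the change of a gene this low (adjusted p = 0.00541, limma). The ULA libraries held 20 Lmo1 reads in all and the DLA libraries 203. Ldb1 itself was measured at 14.82, 4.77 and 12.14 RPKM in ULAs and at 19.02, 6.61 and 15.73 RPKM in DLAs, higher in DLAs in each brain (-0.36 ± 0.11, SE, adjusted p = 0.162, limma). Of the other LIM-homeodomain genes listed, Lhx1, Lhx3, Lhx5 and Lhx9 were listed at 0 in all 6 libraries.

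Rora, which encodes the receptor RORα and is the nearest relative of Rorb, stood above every member. Its values were 400.63, 553.64 and 348.46 RPKM in ULAs and 383, 441.63 and 420.76 RPKM in DLAs. The groups overlapped, and the difference was 0.04 ± 0.12 (SE, 95% interval -0.22 to 0.30, adjusted p = 0.901, limma). Rorb and Rora shared no run as long as a read, with a longest common stretch of 31 bases. Fezf1, the relative of Fezf2, was listed at 0 in all 6 libraries, and Satb1, a chromatin organizer, had a mean of 3.22 RPKM and a difference of 0.00 ± 0.15 (SE).

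**Figure D4:**
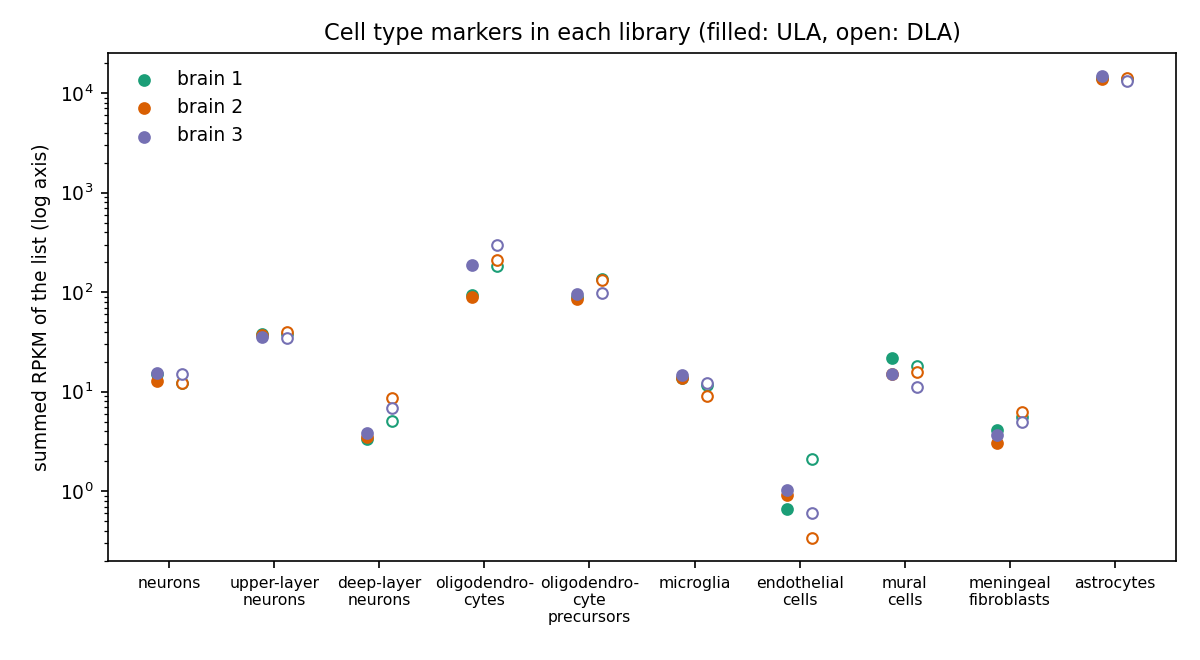
Summed RPKM (log axis) of the markers of each cell type in every library, with ULAs as filled and DLAs as open points coloured by brain. Astrocyte markers lie between 13205 and 14837 RPKM in all libraries. The sums for oligodendrocytes and, mainly through Pcp4, for deep-layer neurons are higher in the DLA library of every brain.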

How the data were processed

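RNA from GFP-positive astrocytes of ULAs and DLAs (3 brains each) was amplified with a SMART-Seq v4 kit, made into Nextera XT libraries and sequenced as single-end 36-base reads. The deposited table gives RPKM that the authors computed per gene against mm9. The submitters' processing notes name bcl2fastq 1.8.4 and CASAVA 1.8.2. The counting program is not given in the sources used here. Table starts count from 0 and were printed from 1.

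Values were log2(RPKM + 1) of the 13999 rows with a mean of at least 1 RPKM over the 6 libraries. Layer was tested with limma 3.58.1 in R 4.3.3, with brain as a block, an intensity trend and Benjamini-Hochberg adjustment over all rows tested. The code was tested on simulated data. A gene was called at an adjusted p under 0.05. Brain was blocked because the labels number the libraries of both groups from 1 to 3 and the methods give 3 brains. Same-numbered libraries deviated together (r = 0.42, 0.33 and 0.34 across rows), whereas other pairs had r between -0.2 and -0.16. The study's own test is paired too.

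Depth per library was recovered from rows of at most 500 bases, of which 99.9% to 100.0% fell exactly on whole reads once the 2-decimal cut of the table was allowed for, while the next best step placed 66.1% to 86.9%. Floors and read counts cover counting error only. Shared read positions were searched in GENCODE M21 transcripts (GRCm38), and 90.9% of the rows tested had a GC content from them. No coordinate was moved between builds.

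The members and the gene lists were chosen with earlier results of these data known. Genes named were all members, the called genes of the related-factor lists, up to 4 further genes per list by mean level, family members that passed the filter, and the 3 rows nearest to the member with the largest difference. Marker genes, and family members listed at 0, were named after their values were seen. Alternatives were another pseudocount, filters, scaling, threshold, row set, trend, length correction, the omission of each brain, the fit without the block and, chosen after seeing the data, a joint GC and length correction.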

Additional observations from a re-analysis of the deposited data

How the results depend on the processing

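With 3 brains and differences of this size the limits are the spread between brains and, for Cux2 and Tbr1, the read count. Of 78 recomputed differences of the 6 members, 75 kept their direction and their side of the threshold. Without replicate 2 the log2 differences of Rorb and Tle4 turned to -0.01 and -0.05, the low ends of ranges that reached 0.32 and 0.20 without replicate 3, and without replicate 3 Lhx2 passed at -0.42 (adjusted p = 0.0444, limma). The number of members called was 0, and 0 to 1 when a replicate was left out and 1 at an adjusted p under 0.1. Rows called, 100 higher in ULAs and 128 in DLAs, ran from 104 to 426 and from 126 to 687 when a replicate was left out (the highest without replicate 3). They came to 23 and 18 with no replicate block, 65 and 79 without the intensity trend, and 209 and 255 at an adjusted p under 0.1. They came to 154 higher in ULAs with RefSeq rows only and to 77 higher in DLAs with a length correction. With no filter the counts were 0 and 0 (limma), with 2799 rows at an unadjusted p under 0.05. Of the 3 related factors called, 1 was called with no replicate block and 1 with a mean of at least 5 RPKM, where fewer genes were tested, and 0 with no filter. The block changed no call of a member. Quantile normalization moved the median of all rows by 0.03 on the log2 scale and the split to 138 higher in ULAs and 103 in DLAs, and the length and GC correction moved it to 137 and 107. The cause of these changes was not tested.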
